A study of Homo sapiens with 4 samples.

Results

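The mitosis and G2/M genes are 40 genes whose products carry a cell from the end of DNA replication through division. They were taken by symbol from a fixed list, and all 40 were found among the 44591 genes of the deposited tables and were among the 23942 genes tested. The libraries came from cells labelled HepG2, an established human liver cancer line, that received siNC as the control siRNA or siLINC01186, which targets the long noncoding RNA LINC01186. Each group held 2 libraries, numbered replicate 1 and replicate 2, and all cells spent 6 h without serum after transfection and then 24 h in medium with 10% serum. The study describes the 2 biological repeats as sharing the control siRNA and differing in the oligo against LINC01186, and the labels do not say which oligo went into which library. The series asked which genes respond to loss of LINC01186, and here the 40 genes were read as a gauge of proliferation, between the treatments and between the replicate numbers.

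Some properties of the libraries come before the results. The counts summed to between 14968958 and 17297245 per library, so 3 counts, taken as the floor of detection for counting error only, corresponded to between 0.169 and 0.210 CPM (counts scaled to 1000000 in each library). Markers of the hepatocyte lineage were at or near 0 in cells labelled HepG2: ALB, the gene of serum albumin, had 0 counts in both replicate 1 libraries, 15 in siNC replicate 2 and 14 in siLINC01186 replicate 2. APOA1, an apolipoprotein gene of liver, had 0 counts in both replicate 1 libraries and 21 and 20 in those of replicate 2. The 8 hepatocyte genes examined summed to 4.90 and 6.23 CPM in replicate 1 and to 15.5 and 14.7 CPM in replicate 2, and HNF4A, a liver transcription factor, supplied most of these counts with 79 to 188 per library. The liver identity given in the labels is therefore not seen in these markers, and the cells are called by their label below. For LINC01186 itself the controls held 15 (replicate 1) and 14 counts (replicate 2), and the libraries labelled siLINC01186 held 12 and 14. Its level was 0.881 ± 0.0200 CPM (SD, n = 2) with siNC and 0.814 ± 0.0368 CPM (SD, n = 2) with siLINC01186, so a knockdown was not detectable at this depth. The paper, which names this RNA SALIS, reports its knockdown by siRNA in HepG2 cells from qPCR. It also reports less proliferation and colony formation after that knockdown, from assays of cells and not from these libraries.

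Division is driven by CDK1 bound to cyclin A or B, which is switched on by CDC25 phosphatases and sustained by the Polo and Aurora kinases. Kinetochore proteins fasten the chromosomes to the spindle, the spindle checkpoint withholds CDC20 from the anaphase-promoting complex until every chromosome is attached, and kinesins and the chromosomal passenger complex then separate the chromosomes and cut the cell. Most of these genes are transcribed in late S, G2 and M phase, which makes their mRNA a common measure of how many cells in a culture are dividing. A short element with the letters TTTGAA, the cell cycle genes homology region (CHR), recruits the MuvB complexes, among them the one with FOXM1, and a CCAAT box recruits NF-Y.

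The 2 oligos against LINC01186 listed by the study are shown because the replicates differed in the oligo used. Capitals mark the seed, bases 2 to 8 of the strand shown, and the second line of each oligo is its reverse complement.
siSALIS_01: aGGGCTCTattgggcaaaaa
siSALIS_01 reverse complement: tTTTTGCCcaatagagccct
siSALIS_02: cTAAGTGActcactgcatc
siSALIS_02 reverse complement: gATGCAGTgagtcacttag
As listed, siSALIS_02 matched bases 227 to 245 of the 626-base LINC01186 transcript in GENCODE release 29, in exon 2 of 2, at chrX:46326305-46326323 of GRCh38 on the minus strand. It is thus written in the sense of its target, and its reverse complement is the strand that pairs with LINC01186. No exact match of siSALIS_01 was found in that transcript. The search covered GENCODE release 29 only, and the 655-base transcript that the paper describes was not searched. The letters complementary to either seed of siSALIS_02, ACTGCAT or TCACTTA, occurred in the longest annotated 3′UTR of 4 of the 40 genes (10.0%), against 20.8% of 19133 genes. For siSALIS_01, with the letters AGAGCCC or GGCAAAA, it was 6 of the 40 genes (15.0%) against 22.6% of all.

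The matches to the siSALIS_02 seeds are printed with the matching letters in capitals, each as 30 bases of GENCODE transcript with its GRCh38 position.
CCNB1, chr5:69177967-69177996, plus strand: ccataggacatACTGCATgtaagccaagtc
CENPA, chr2:26793932-26793961, plus strand: agaaggagaagACTGCATgactttcctctg
MKI67, chr10:128096720-128096749, minus strand: catgagggccgACTGCATttcctggttact
ECT2, chr3:172821301-172821330, plus strand: acaaatgtttgTCACTTAaatttcaagttt
Such letters are a description of the transcript and not evidence of a target, and which oligo went into which library is not known.

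RefSeq promoter sequences (GRCh38.p14, 250 bases before to 50 after the start) were matched for 33 of the 40 genes, the others being TTK, TPX2, FOXM1, UBE2C, BIRC5, BUB3 and AURKA. With both strands read, TTTGAA was in a promoter of 23 of the 33 genes (69.7%) and of 18.2% of 27305 genes. The variant TTTAAA was in 12 of the 33 (36.4%, against 14.5%), and CCAAT was in 27 (81.8%, against 39.7%). A single promoter held both TTTGAA and CCAAT in 19 of the 33 genes (57.6%), against 7.3% of all genes. The genes were chosen by symbol, without regard to sequence, and these shares are a description with no test.

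The 120 bases before the start are shown for 7 genes that the results below turn on. Capitals mark the 3 elements named above on either strand, and the last base printed is the one just before the start.
CCNB1, chr5:69167030-69167149, plus strand: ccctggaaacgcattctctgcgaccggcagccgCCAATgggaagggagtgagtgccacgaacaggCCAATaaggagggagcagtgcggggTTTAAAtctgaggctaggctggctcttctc
PLK1, chr16:23678769-23678888, plus strand: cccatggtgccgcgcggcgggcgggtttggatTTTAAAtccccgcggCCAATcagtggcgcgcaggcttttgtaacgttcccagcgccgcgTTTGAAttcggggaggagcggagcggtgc
KIF20A, chr5:138178992-138179111, plus strand: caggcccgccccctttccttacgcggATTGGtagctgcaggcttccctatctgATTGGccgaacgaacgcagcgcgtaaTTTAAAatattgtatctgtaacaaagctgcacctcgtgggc
MKI67, chr10:128126424-128126543, minus strand: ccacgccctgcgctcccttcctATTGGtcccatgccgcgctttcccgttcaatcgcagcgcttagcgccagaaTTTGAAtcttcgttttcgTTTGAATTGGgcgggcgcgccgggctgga
ANLN, chr7:36389742-36389861, plus strand: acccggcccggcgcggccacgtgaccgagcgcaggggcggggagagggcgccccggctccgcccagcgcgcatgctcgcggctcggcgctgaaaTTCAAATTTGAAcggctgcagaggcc
ECT2, chr3:172750606-172750725, plus strand: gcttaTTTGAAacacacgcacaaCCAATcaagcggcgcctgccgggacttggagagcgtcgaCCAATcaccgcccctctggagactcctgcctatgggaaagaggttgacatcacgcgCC
CENPE, chr4:103198344-103198463, minus strand: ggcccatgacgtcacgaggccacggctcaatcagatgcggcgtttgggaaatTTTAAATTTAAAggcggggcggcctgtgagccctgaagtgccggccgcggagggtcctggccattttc
In CCNB1 and KIF20A a single TTTAAA lay 30 and 41 bases before the start, downstream of a pair of CCAAT boxes, and in PLK1 TTTGAA lay 29 bases before it. ANLN carried TTCAAA and TTTGAA end to end and CENPE carried TTTAAA as a tandem pair, and neither had CCAAT in the window printed. In MKI67 the TTTGAA nearer the start shared 1 base with ATTGG, and in ECT2 the final capitals begin a CCAAT that runs across the start.

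All 40 genes were detected in every library, with between 184 and 9088 counts. Of these, 14 overlap a gene on the other strand in the deposited files, and with the strand setting unknown the reads of such genes may be mixed. Per length (RPKM, the CPM divided by the length of the gene's transcript in kilobases), the levels ran from 3.66 ± 1.10 (SD over the 4 libraries) for CENPE, a kinetochore motor, to 104 ± 7.72 for UBE2C, the ubiquitin-conjugating enzyme of the anaphase-promoting complex. CDC20, the activator of that complex, stood beside UBE2C at 102 ± 11.8 RPKM, and this gap was smaller than the spread of either gene. TPX2, which activates Aurora A on the spindle, had 85.4 ± 5.41 RPKM and PRC1, the midzone crosslinker, 81.9 ± 4.03 RPKM, again within the spread. PLK1, FOXM1, TOP2A and CCNB1 lay between 73.5 and 78.6 RPKM and could not be ordered beyond their SDs. At the low end CDC25C had 5.97 ± 1.47 RPKM and NDC80, a subunit of the outer kinetochore, 10.4 ± 1.77 RPKM. In 20 of the 40 genes the SD over the 4 libraries was under 10% of the mean. The 40 genes together took 0.542% of the counts in siNC replicate 1, 0.622% in siNC replicate 2, 0.545% in siLINC01186 replicate 1 and 0.560% in siLINC01186 replicate 2. The control library of replicate 2 was therefore the one with the largest share.

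**Figure D1:**
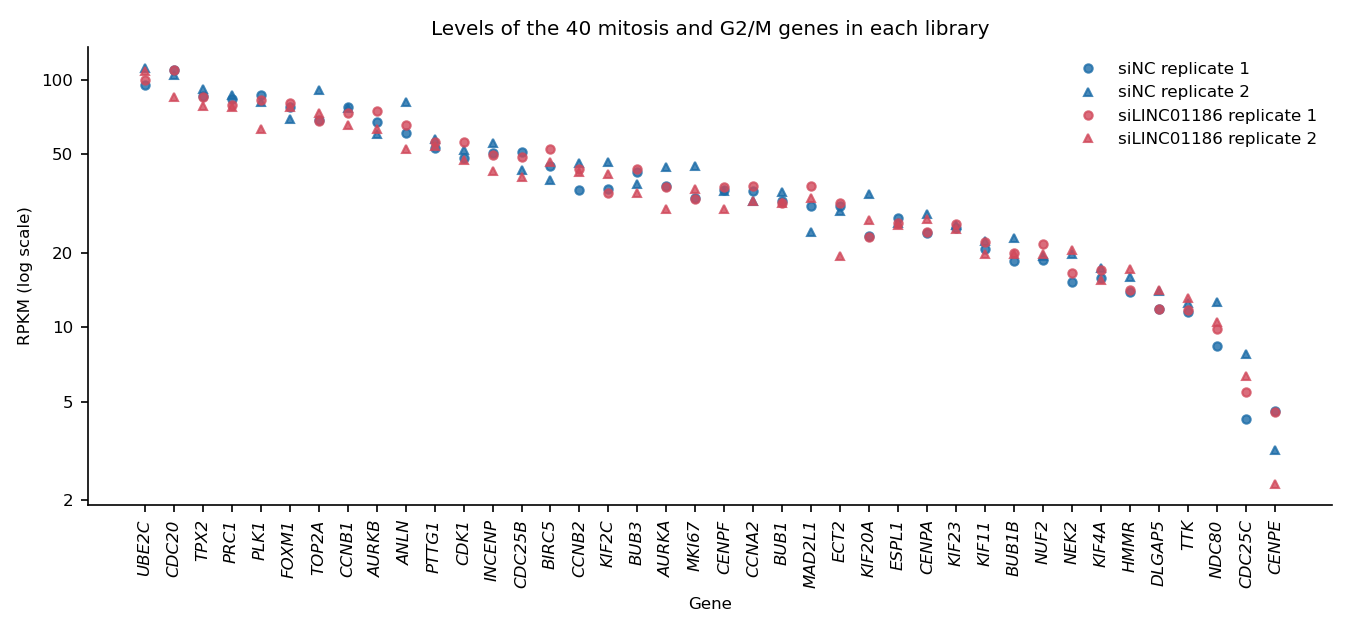
Levels of the 40 genes, ordered by their mean, in RPKM on a log axis with 1 marker per library. Blue is siNC and red siLINC01186, circles are replicate 1 and triangles replicate 2; UBE2C is highest at 104 RPKM on average and CENPE lowest at 3.66 RPKM, where both circles lie above both triangles.

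Between the treatments, no mitosis gene passed the test. By edgeR's quasi-likelihood test on all genes the adjusted p was under 0.05 for 0 of the 40 genes and for 0% of the 23942 genes tested, and the adjusted p of each of the 40 was 0.9998. None had an unadjusted p under 0.05 either, and the Wald test of DESeq2 also called 0 and found 0 at that unadjusted level. These fits held no replicate term. With replicate number as a block, edgeR's test also called 0 of the 40, but 6 had an unadjusted p under 0.05. That fit called 278 of all genes tested. None passed the limits stated by the study, a log2 fold change beyond 1 with an unadjusted p under 0.05, which 0.756% of all genes passed. The median log2 fold change of the 40, siLINC01186 over siNC, was -0.04, with 14 genes above 0 and 26 below, while the median over all genes tested was 0.00. Without siNC replicate 2 the median of the 40 was 0.03. The standard errors lay between 0.18 and 0.32 on the log2 scale. Even the largest log2 fold change of the 40, 0.35 for MAD2L1 (SE 0.20), had an unadjusted p of 0.110 by edgeR's test. Without a replicate term, differences of that size or smaller could thus not be resolved, and larger ones may not be either. Both siLINC01186 libraries lay above both siNC libraries in 3 of the 40 genes and below them in 6. Such a separation was seen upward in 13.6% and downward in 12.4% of all genes tested, so the 40 genes did not stand out by it.

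Read within each replicate number, the genes differed little in replicate 1 and were mostly lower with siLINC01186 in replicate 2. Each of these comparisons has 1 library per arm and no test. In the replicate 1 libraries the median log2 CPM difference, siLINC01186 minus siNC, was 0.03, with 24 genes higher and 16 lower and a range from -0.07 to 0.35. In the replicate 2 libraries the median was -0.15, with 10 genes higher and 30 lower and a range from -0.63 to 0.46. Of the 40 genes 75.0% were lower in the replicate 2 libraries, against 49.9% of all genes tested and 52.5% of the 10180 genes with a mean of at least 10 CPM. Of the related lists, 67.7% of 65 other mitosis genes and 70.0% of 10 cell-cycle inhibitors were lower. The share was 40% of 20 regulators of mitotic transcription and 41.7% of 24 genes of the G1/S step and of replication. With scaling by the total count alone 27 of the 40 were lower. Across the 4 libraries siNC replicate 2 was the highest for 19 of the 40 genes and siLINC01186 replicate 2 the lowest for 19, while these libraries were the highest for 23.0% and the lowest for 32.4% of the 10180 genes. The summed level of the 40 was 5593 and 5705 CPM with siNC and siLINC01186 in replicate 1, and 6096 and 5287 CPM in replicate 2. In bulk libraries, fewer dividing cells and less of these mRNAs per cell cannot be told apart. Libraries of the same label also differed by more than counting error. Scaled by total counts alone, the chi-square averaged 18.7 per gene for siNC and 21.8 for siLINC01186, whose oligos differed by the study's account. A difference between single libraries can therefore not be assigned to treatment.

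**Figure D2:**
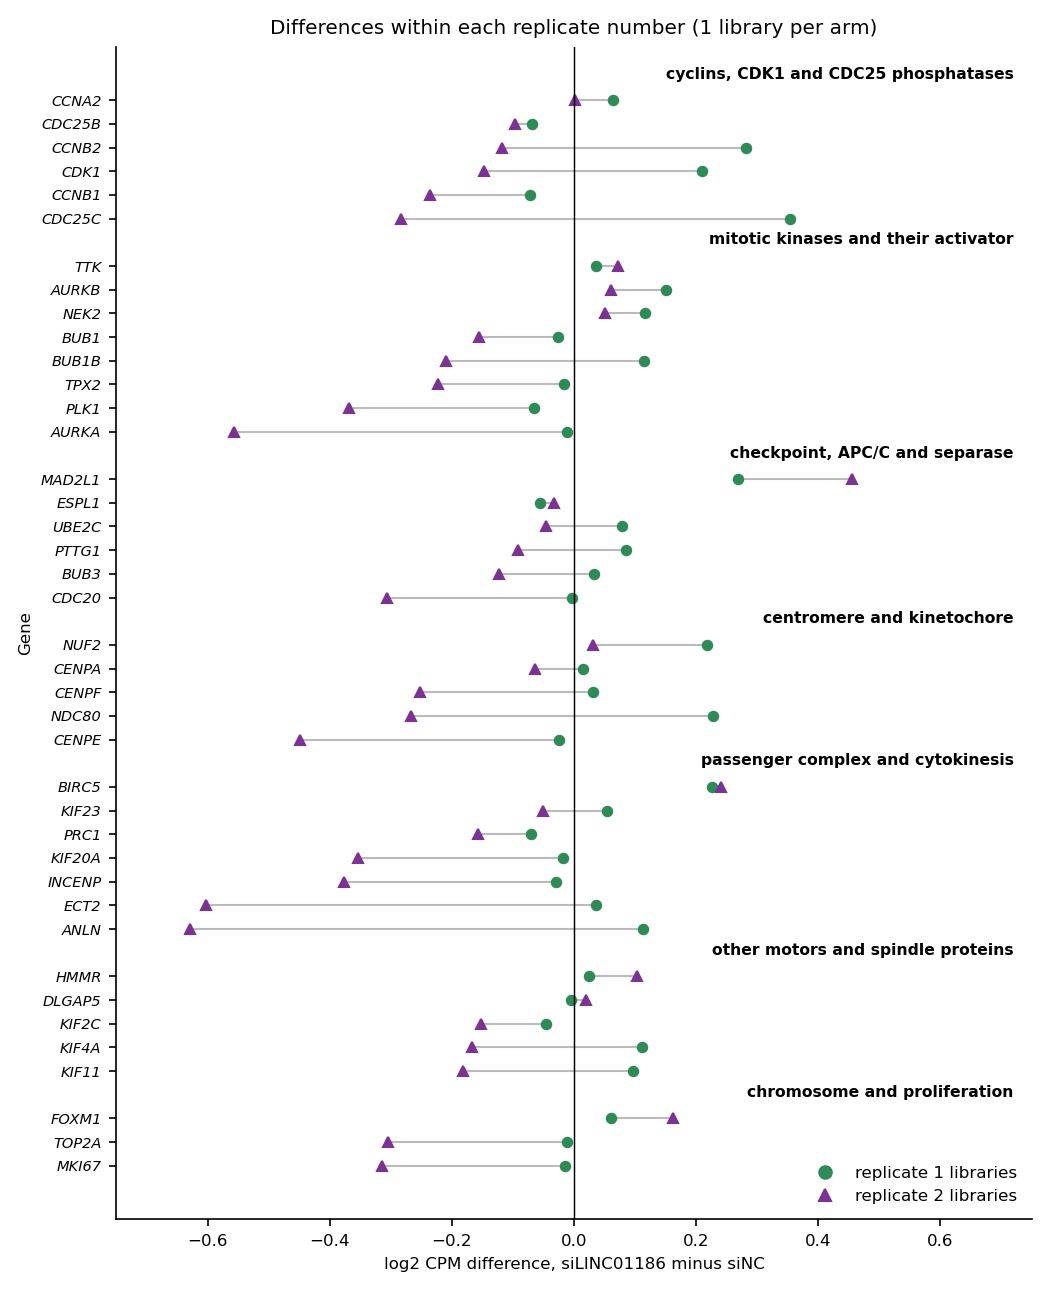
Log2 CPM difference, siLINC01186 minus siNC, for each of the 40 genes grouped by role, with 1 library per arm. Green circles are the replicate 1 libraries and purple triangles those of replicate 2, joined by a grey line; 30 of the triangles and 16 of the circles lie below 0, and ANLN, ECT2 and AURKA have the lowest triangles.

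Between the replicate numbers, 8 of the 40 genes differed. In a fit with treatment and replicate as terms, CENPE and ECT2 were higher in replicate 1, which 9.55% of all genes tested were. CDC25C, KIF20A, MKI67, KIF2C, NEK2 and TOP2A were lower in replicate 1, as were 7.96% of all genes. Of all genes tested 17.5% were called, and of those with a mean of at least 10 CPM 29.5% were, so 8 of 40 is not a share that sets the list apart. The median log2 fold change of the 40, replicate 1 over replicate 2, was 0.01, and the median over all genes was -0.02. Scaling by total count alone shifted the median log2 CPM difference of all genes by -0.11 and gave 1 gene higher and 8 lower in replicate 1. Of the 8 calls, CENPE passed under every alternative fit that gave a test, with adjusted p-values between 3.1e-06 and 0.0203. With edgeR's own expression filter the calls were CENPE and KIF20A, and with the DESeq2 Wald test or with no treatment term CENPE alone was called. The hepatocyte markers given above moved with this contrast, 5 of the 7 tested being called lower in replicate 1, and so did COL1A1, a collagen gene, with 467 and 333 counts in replicate 1 and 790 and 680 in replicate 2, and their part in the result was not tested.

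**Figure D3:**
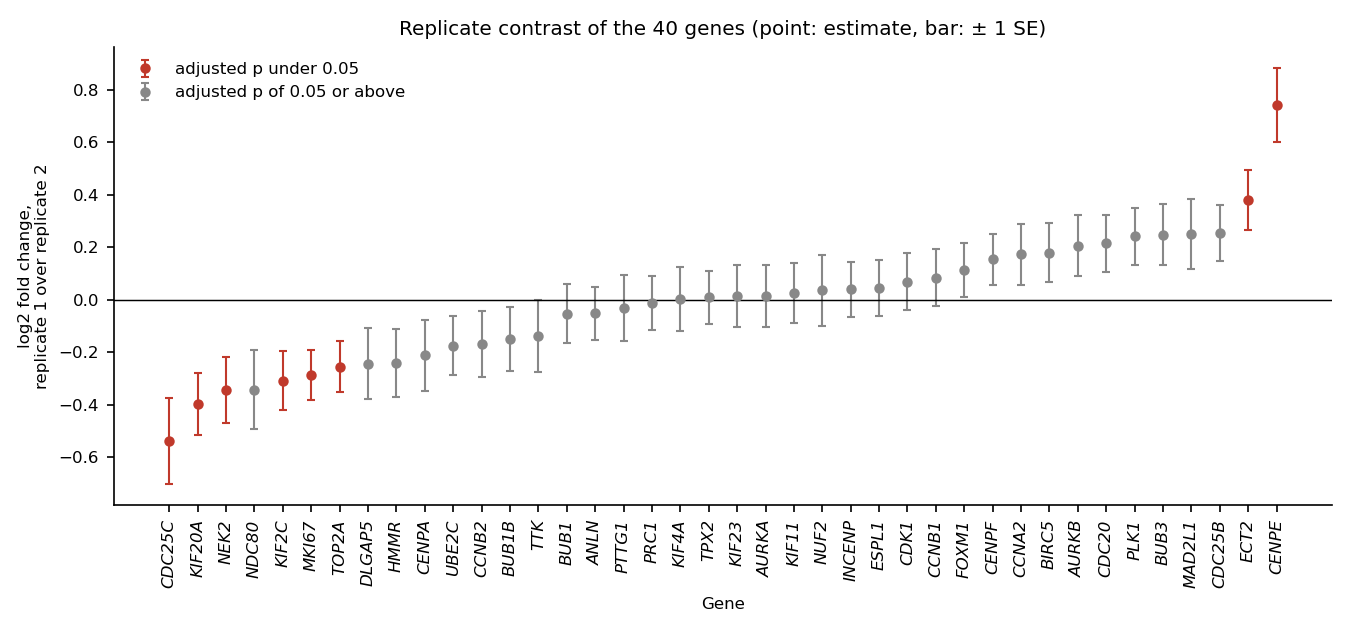
Log2 fold change of each of the 40 genes, replicate 1 over replicate 2, ordered by size, with bars of 1 standard error from edgeR's fit. The 8 red points passed an adjusted p of 0.05, with CENPE highest at 0.74 and CDC25C lowest at -0.54.

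Among the cyclins, CDK1 and the CDC25 phosphatases, CCNB1, the cyclin that forms the mitotic kinase with CDK1, had 168 CPM in siNC replicate 1, 160 in siLINC01186 replicate 1, 168 in siNC replicate 2 and 142 in siLINC01186 replicate 2. Both libraries labelled siLINC01186 were below both controls, and the log2 fold change was -0.15 (SE 0.18). CDK1 had 161 and 186 CPM with siNC and siLINC01186 in replicate 1, and 174 and 157 CPM in replicate 2. The direction turned between the replicate numbers, and over all libraries the log2 fold change was 0.04 (SE 0.19). Neither gene differed between the replicates by the test, with log2 fold changes of 0.08 (SE 0.11, adjusted p = 0.710) and 0.07 (SE 0.11, adjusted p = 0.775) that were negative under total-count scaling.

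CDC25C, a phosphatase that removes the inhibitory phosphates of CDK1, had 184 and 201 counts in siNC and siLINC01186 replicate 1, and 322 and 291 in replicate 2. Both replicate 1 libraries were below both of replicate 2, the level being 1.45-fold higher in replicate 2 (log2 fold change of replicate 1 over replicate 2 -0.54, SE 0.16, adjusted p = 0.00859). The difference was -0.85 between the siNC libraries and -0.22 between those labelled siLINC01186. This call was lost with edgeR's expression filter (adjusted p = 0.0651) and the Wald test (adjusted p = 0.301). In the tables CDC25C, at chr5:137620954-137674044 of hg19 on the minus strand, overlaps FAM53C on the other strand, which had 1121 to 1287 counts per library, and strand was not stated for the counting. CDC25B, the related phosphatase, had 224 and 214 CPM in replicate 1 and 190 and 177 in replicate 2, with siNC first in each. Its replicate 1 libraries were both higher, by 0.26 on the log2 scale (SE 0.11), without passing the test (adjusted p = 0.0796). CCNB2, another B-type cyclin, had log2 CPM differences between treatments of 0.28 in replicate 1 and -0.12 in replicate 2, and CCNA2, the cyclin of S and G2 phase, of 0.06 and 0.00.

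Among the mitotic kinases and their activator, AURKA, which builds the spindle poles, had 96.4 and 95.6 CPM with siNC and siLINC01186 in replicate 1, and 115 and 78.2 CPM in replicate 2. The log2 fold change between treatments was -0.28 (SE 0.20), and the difference of 1.47-fold was in the replicate 2 libraries. PLK1, the Polo kinase of mitotic entry, had 198 and 189 CPM in replicate 1 and 186 and 144 CPM in replicate 2, in the same order. The low value was again siLINC01186 replicate 2, with a log2 fold change between treatments of -0.20 (SE 0.20) and between replicates of 0.24 (SE 0.11, adjusted p = 0.111). AURKB, the kinase of the passenger complex, went the other way, with 103 and 114 CPM in replicate 1 and 92.1 and 96.1 CPM in replicate 2. Its log2 fold change was 0.11 (SE 0.19) between treatments and 0.21 (SE 0.12, adjusted p = 0.253) between replicates.

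NEK2, a kinase that splits the centrosomes, had 50.1 and 54.4 CPM in replicate 1 and 65.1 and 67.5 CPM in replicate 2. Both replicate 2 libraries were above both of replicate 1, by 1.27-fold (log2 fold change of replicate 1 over replicate 2 -0.34, SE 0.13, adjusted p = 0.0401). The call was lost with edgeR's expression filter (adjusted p = 0.0529) and when genes with 1 count or more were kept (adjusted p = 0.0569). The checkpoint kinases BUB1, BUB1B and TTK had log2 CPM differences between treatments of -0.03, 0.12 and 0.04 in replicate 1 and of -0.16, -0.21 and 0.07 in replicate 2. TPX2 had differences of -0.02 and -0.22.

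Among the checkpoint proteins, the anaphase-promoting complex and its substrates, MAD2L1, the checkpoint protein that binds CDC20, had the highest log2 fold change of the 40 between treatments. It had 44.5 CPM in siNC replicate 1, 53.6 in siLINC01186 replicate 1, 35.0 in siNC replicate 2 and 48.1 in siLINC01186 replicate 2. Both libraries labelled siLINC01186 were above both controls, with a log2 fold change of 0.35 (SE 0.20, unadjusted p = 0.110), which did not pass. CDC20, which MAD2L1 holds back, had 184 and 184 CPM in replicate 1 and 176 and 142 CPM in replicate 2, with siNC first. Its log2 fold change between treatments was -0.14 (SE 0.20), and the lone low library was siLINC01186 replicate 2. BUB3, which carries the BUB kinases to the kinetochore, differed by 0.25 between replicates (log2, SE 0.12, adjusted p = 0.131) and was higher in both replicate 1 libraries. UBE2C, PTTG1, known as securin, whose reads may be shared with near-identical copies, and ESPL1, the separase that securin restrains, had log2 CPM differences between treatments of 0.08, 0.09 and -0.06 in replicate 1 and of -0.05, -0.09 and -0.03 in replicate 2.

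Among the centromere and kinetochore genes, CENPE, the kinesin that moves chromosomes to the spindle equator, had the highest log2 fold change between replicates of the 40. It had 39.6 CPM in siNC replicate 1, 39.0 in siLINC01186 replicate 1, 27.4 in siNC replicate 2 and 20.03 in siLINC01186 replicate 2. Both replicate 1 libraries were above both of replicate 2, by 1.67-fold (log2 fold change 0.74, SE 0.14, adjusted p = 5.2e-06). The difference was 0.53 on the log2 CPM scale between the siNC libraries and 0.96 between those labelled siLINC01186. Between treatments CENPE had a log2 fold change of -0.19 (SE 0.32), and it lies at chr4:104026963-104119566 of hg19 on the minus strand.

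NDC80, whose complex grips the microtubule end, moved the opposite way between replicates without passing the test. It had 306 and 306 counts in replicate 1 and 444 and 406 in replicate 2, with siNC first, a log2 fold change of -0.34 (SE 0.15, adjusted p = 0.101) that passed under total-count scaling (adjusted p = 0.0239). NUF2, its partner in the same complex, had 37.1, 43.1, 38.6 and 39.4 CPM in siNC 1, siLINC01186 1, siNC 2 and siLINC01186 2. Its libraries overlapped between the replicate numbers, where those of NDC80 did not. CENPF, a large kinetochore protein, and CENPA, the centromeric histone, had log2 CPM differences between treatments of 0.03 and 0.01 in replicate 1 and of -0.25 and -0.06 in replicate 2.

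Among the passenger complex and cytokinesis genes, ANLN and ECT2 had the lowest log2 CPM differences between treatments of the 40 in the replicate 2 libraries, -0.63 and -0.60. ANLN, the anillin that organizes the contractile ring, had 292 and 315 CPM with siNC and siLINC01186 in replicate 1, and 391 and 253 CPM in replicate 2. The siNC replicate 2 library was the highest of the 4 and siLINC01186 replicate 2 the lowest, a 1.55-fold difference between them. Over all libraries the log2 fold change between treatments was -0.27 (SE 0.22). ECT2, the exchange factor that activates RhoA at the cleavage site, had 139 and 143 CPM in replicate 1 and 133 and 87.7 CPM in replicate 2, in the same order. Here 3 libraries were alike and siLINC01186 replicate 2 was low, by 1.52-fold against its control, with a log2 fold change between treatments of -0.24 (SE 0.24). Between replicates ECT2 was called with a log2 fold change of 0.38 (SE 0.11, adjusted p = 0.00764), the difference being 0.06 between the siNC libraries and 0.70 between those labelled siLINC01186. The call was lost under total-count scaling (adjusted p = 0.0841).

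KIF20A, a kinesin that brings the passenger complex to the midzone, had 81.3 and 80.3 CPM in replicate 1 and 120 and 94.1 CPM in replicate 2, with siNC first. Both replicate 2 libraries were above both of replicate 1, by 1.32-fold (log2 fold change of replicate 1 over replicate 2 -0.40, SE 0.12, adjusted p = 0.00724), and the fold change between treatments was -0.21 (SE 0.23) on the log2 scale. The difference between replicates was -0.56 within siNC and -0.23 within siLINC01186. In the tables KIF20A overlaps CDC23 on the other strand, which had 606 to 748 counts per library. INCENP, the scaffold of the passenger complex, had 211 and 206 CPM in replicate 1 and 231 and 178 in replicate 2, with a log2 fold change between treatments of -0.20 (SE 0.19).

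BIRC5, the survivin subunit of the same complex, was higher with siLINC01186 under both replicate numbers. It had 122 and 142 CPM in replicate 1 and 107 and 126 CPM in replicate 2, with siNC first, a log2 fold change of 0.23 (SE 0.19) that did not pass. Among the 40 genes AURKB, INCENP and BIRC5 encode subunits of this complex, and their log2 fold changes were of unlike sign, with none passing the test. CDCA8, the borealin subunit, is on the list of other mitosis genes and had 54.0 and 55.6 CPM in replicate 1 and 58.4 and 51.3 CPM in replicate 2. PRC1 and KIF23, which bundle the midzone, had log2 CPM differences between treatments of -0.07 and 0.05 in replicate 1 and of -0.16 and -0.05 in replicate 2.

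Among the other motors and spindle proteins, KIF2C, a kinesin that depolymerizes microtubules, had 118 and 115 CPM in replicate 1 and 152 and 137 CPM in replicate 2, with siNC first. Both replicate 2 libraries were above both of replicate 1, by 1.24-fold (log2 fold change of replicate 1 over replicate 2 -0.31, SE 0.11, adjusted p = 0.0368), a call lost with edgeR's expression filter (adjusted p = 0.0522). KIF11, the motor that separates the spindle poles, had 105 and 112 CPM in replicate 1 and 114 and 100.1 CPM in replicate 2, and KIF4A, a chromosome-bound kinesin, 71.2 and 76.9 CPM and 78.4 and 69.8 CPM. In both genes the order of siNC and siLINC01186 turned between the replicate numbers. HMMR and DLGAP5, which bind spindle microtubules, had 43.7 to 54.0 CPM and 36.6 to 43.7 CPM over the 4 libraries, with both replicate 1 libraries below both of replicate 2.

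Of the 3 genes tied to chromosomes and proliferation at large, MKI67, which encodes the Ki-67 antigen used to score dividing cells, had 416 and 412 CPM in replicate 1 and 563 and 453 CPM in replicate 2, with siNC first. Both replicate 2 libraries were above both of replicate 1, by 1.22-fold (log2 fold change of replicate 1 over replicate 2 -0.29, SE 0.10, adjusted p = 0.0200). TOP2A, the topoisomerase that untangles sister chromatids, had 397 and 394 CPM in replicate 1 and 524 and 424 CPM in replicate 2. It too was higher in both replicate 2 libraries, by 1.19-fold (log2 fold change -0.26, SE 0.10, adjusted p = 0.0461). The difference between replicates was -0.44 within siNC and -0.14 within siLINC01186 for MKI67, and -0.40 and -0.11 for TOP2A. For both genes siNC replicate 2 was the highest library, the call was lost with edgeR's expression filter (adjusted p = 0.0703 and 0.0957), and the log2 fold changes between treatments were -0.18 (SE 0.21) and -0.17 (SE 0.20). FOXM1, the transcription factor of G2/M genes, had 283 and 295 CPM in replicate 1 and 253 and 283 CPM in replicate 2. Its log2 fold change was 0.11 (SE 0.18) between treatments and 0.11 (SE 0.10, adjusted p = 0.542) between replicates.

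Other genes of the division cycle, listed apart from the 40, gave the setting. Of 65 other mitosis genes 0 were called between treatments and 15 (23.1%) between replicates, against 17.5% of all genes tested. Of the genes with a mean of at least 10 CPM 29.5% were called between replicates. In the list 10 were higher and 5 lower in replicate 1. This split was 5 higher and 11 lower under total-count scaling, and 2 higher and 0 lower under the Wald test. KIF20B, a kinesin of cytokinesis, had 87.8 and 84.1 CPM in replicate 1 and 54.9 and 44.5 CPM in replicate 2 (log2 fold change 0.80, SE 0.12, adjusted p = 1.4e-08). PKMYT1, a kinase that holds CDK1 inactive, and CENPT, of the inner kinetochore, were also higher in replicate 1, with log2 fold changes of 0.50 (SE 0.11, adjusted p = 0.000140) and 0.59 (SE 0.13, adjusted p = 0.000181). Between treatments ZW10, a checkpoint gene of the kinetochore, CENPN and CENPI had the smallest p-values, with log2 fold changes of 0.46 (SE 0.25), 0.29 (SE 0.18) and -0.39 (SE 0.25) that were not called.

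Of 20 regulators of mitotic transcription 0 were called between treatments and 4 (20%) between replicates, or 0 under the Wald test. That share too lay between the 17.5% of all genes tested and the 29.5% of genes with a mean of at least 10 CPM. TFDP1 and E2F4, partners in E2F complexes, were higher in replicate 1 by log2 fold changes of 0.47 (SE 0.10, adjusted p = 7.1e-05) and 0.52 (SE 0.12, adjusted p = 0.000158). TFDP2 was lower, at -0.40 (SE 0.13, adjusted p = 0.0215), as was RBL2, the pocket protein p130 of the repressive DREAM complex, at -0.38 (SE 0.13, adjusted p = 0.0285), which was named after its values were seen. Between treatments E2F5, E2F3 and LIN52, a MuvB subunit, had the smallest p-values, with log2 fold changes of -0.44 (SE 0.25), -0.24 (SE 0.19) and -0.34 (SE 0.26), none called.

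Of 10 inhibitors of the cell cycle 6 were lower in replicate 1 and 0 were higher. The list was chosen with earlier results of these data known, so its share is a description only. Of all genes tested 7.96% were called lower, as were 1007 of the 10180 genes with a mean of at least 10 CPM. Under the other scalings and edgeR's expression filter 5 to 7 of the 10 inhibitors were called lower. Without the treatment term it was 4, and under the Wald test 2. CDKN1A, which encodes the CDK inhibitor p21, had 70.4 and 61.1 CPM in replicate 1 and 140 and 79.4 CPM in replicate 2, with siNC first. Its replicate 2 libraries were both higher (log2 fold change of replicate 1 over replicate 2 -0.69, SE 0.12, adjusted p = 5.6e-07), and siNC replicate 2 was the highest library. BTG2, an antiproliferative gene, and CCNG2, an atypical cyclin linked to arrest, were lower in replicate 1 by log2 fold changes of -0.96 (SE 0.16, adjusted p = 2.2e-07) and -0.75 (SE 0.16, adjusted p = 9.1e-05). The siNC replicate 2 library thus held the highest level both of CDKN1A and of MKI67, TOP2A and ANLN.

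Of 24 genes of the G1/S step and of replication 5 were higher in replicate 1 and 0 were lower. Over all genes tested 9.55% were higher, and 1994 of the 10180 genes with a mean of at least 10 CPM were, a share close to that of the list. Of these 24 genes, 2 were called under total-count scaling and 1 under the Wald test. RRM2, the ribonucleotide reductase subunit of S phase, had 256 and 317 CPM in replicate 1 and 171 and 179 CPM in replicate 2 (log2 fold change 0.71, SE 0.10, adjusted p = 1.9e-09). CDC6, a licensing factor, and CCNE1, the cyclin of S-phase entry, differed by 0.45 (SE 0.12, adjusted p = 0.00155) and 0.47 (SE 0.13, adjusted p = 0.00454), and the other calls were MCM7 and GINS2, named after their values were seen. The summed level of the 24 was 3534 and 3787 CPM in replicate 1 and 3222 and 3302 CPM in replicate 2, so siNC replicate 2 had the lowest sum here while it had the highest sum of the 40 mitosis genes. Between treatments 0 of the inhibitors and 0 of the G1/S genes were called in the fit without a replicate term. In that fit CDKN1A had a log2 fold change of -0.58 (SE 0.31), and GINS1, of the replication fork, one of 0.32 (SE 0.20). With a replicate block CDKN1A was called lower with siLINC01186.

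**Figure D4:**
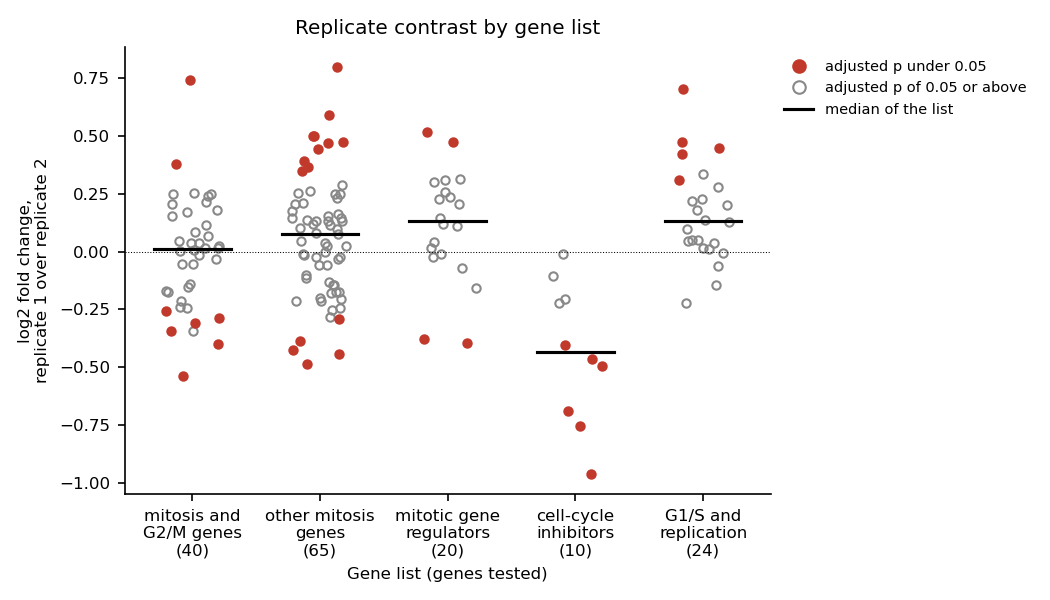
Log2 fold change, replicate 1 over replicate 2, for the 40 mitosis and G2/M genes and for 4 other lists, with 1 point per gene and a bar at the median of each list. The lists were chosen with earlier results of these data known. Red points passed an adjusted p of 0.05; those of the inhibitors all lie below 0, those of the G1/S and replication list all lie above 0, and those of the 40 genes lie on both sides.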

How the data were processed

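RNA was poly(A)-selected with oligo-dT beads and sequenced as Illumina paired ends. The files deposited by the authors hold, for every gene, a raw read count and a TPM value. Per the labels, the processing notes name HISAT2, HISAT, TopHat2 and Bowtie2 and the build hg19; the counting program and its strand setting are not given in the sources used here. The deposited TPM equalled counts divided by gene length and scaled to 1000000, within 2.91e-05, and was used only for this check. Genes whose counts over the 4 libraries came to 5 or more were tested in R 4.3.3 with edgeR 4.0.16 (TMM scaling, quasi-likelihood test) with adjustment by Benjamini-Hochberg over all 23942 genes tested; treatments were compared without other terms, and replicates with treatment as a term. Standard errors come from the log2 fold change and its F statistic. CPM uses the TMM-scaled library size, log2 CPM a prior count of 2, and RPKM the gene length of the tables. DESeq2 1.42.0, total-count and size-factor scaling, other filters, robust estimation, a replicate block and leaving out each library were alternatives. The procedure was also run on simulated counts drawn with the spread that edgeR estimated from these libraries. Such a run checks the code and cannot show whether that spread is right. Sequences came from RefSeq, GENCODE release 29 and the study's oligo list, read with Python 3.11.15; gene positions are those of the tables, hg19 by the notes, unless GRCh38 is named. Members and lists were chosen with earlier results of these data known. Tests are given for CCNB1, CDK1, PLK1, AURKB, MKI67, TOP2A and FOXM1 and, per contrast, the 12 members of smallest p in the fit with both terms, and for the 3 genes of smallest p in each other list; PIMREG was not found by symbol. The list of other cell types (PTPRC, CD3E, PECAM1, VWF, COL1A1, COL1A2, KRT5, CD68) had 1 gene called between replicates, COL1A1. The labels do not say that libraries came from separate cultures, although the paper calls them biological repeats. The p-values rest on a spread between libraries that edgeR estimates with information shared across genes, and this spread may be technical. In the replicate fit a gene's own spread entered little. ECT2, for example, had an SE of 0.11 with replicate differences of 0.06 within siNC and 0.70 within siLINC01186.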

Additional observations from a re-analysis of the deposited data

Results flagged for a closer look

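For 3 of the 40 genes the difference between treatments had opposite signs under the replicate numbers and the log2 CPM differences lay at least 0.5 apart. ANLN was 0.11 higher with siLINC01186 in replicate 1 and 0.63 lower in replicate 2, a gap of 0.742. ECT2 was 0.04 higher and 0.60 lower, a gap of 0.639, and CDC25C was 0.35 higher and 0.28 lower, a gap of 0.636. With 1 library per arm under each number these gaps were not tested, and the replicates also differ in the siRNA oligo against LINC01186.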

How the results depend on the processing

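Between treatments, 0 of the 40 genes were called or passed the study's limits under every alternative run, DESeq2, other filters and scalings, and each library left out in turn. With a replicate block the count was also 0, the smallest adjusted p of a member was 0.219 (MAD2L1), 6 members had an unadjusted p under 0.05, and of the other lists CDKN1A (adjusted p = 0.00362) and the keratin gene KRT5 (adjusted p = 0.0400) were called; over all genes 278 were called. The pairing behind such a block was not established, with only 2 numbers. Same-numbered deviations correlated at 0.32 over all genes tested, 0.56 over genes passing edgeR's expression filter and 0.68 over the 40. Leaving out each library in turn moved the median log2 fold change of the 40 between -0.101 and 0.0267. It turned the sign for CDK1 (-0.0930 to 0.139), AURKB (-0.0215 to 0.214), MKI67 (-0.381 to 0.0455), TOP2A (-0.357 to 0.0353), ECT2 (-0.635 to 0.0530), CENPE (-0.742 to 0.204), KIF20A (-0.464 to 0.0918) and CDC20 (-0.339 to 0.0137). Between replicates, the 8 calls became 1 with the DESeq2 Wald test, 2 with edgeR's expression filter and 1 without the treatment term, 9 with total counts and 6 when genes with 1 count or more were kept; the cause was not tested. Total-count scaling turned CCNB1 to -0.0284 and CDK1 to -0.0447. Leaving out 1 library from the replicate contrast leaves no test; the median of the 40 was then -0.12 within siNC and 0.09 within siLINC01186.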
